A study of Mus musculus with 8 samples.

Results

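Pressure overload of the heart was examined here as 1 contrast: the 4 libraries from mice that had TAC surgery against the 4 libraries from mice that had sham surgery, with genotype as a covariate. TAC, in this field transverse aortic constriction, narrows the aorta so that the left ventricle pumps against a raised pressure, and a sham operation leaves the aorta open. The 8 libraries are all those of the series, and 14817 of 54532 listed genes reached 0.5 FPKM (fragments per kilobase of gene, scaled to the size of the library) in at least 2 of them and were tested. Heart tissue came from C57BL/6 mice, with 2 libraries for each of 4 groups: wild type (WT) after sham or TAC surgery, and mice labelled Piezo1-Cko (Cko), a conditional knockout of the stretch-gated ion channel Piezo1, after sham or TAC surgery. The time after surgery, the age of the mice, the promoter that drives Cre, the cells in which the gene was deleted and whether each library is 1 animal are not given in the sources used here, so p-values measure the spread between these libraries.

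A heart under pressure overload is known to enlarge its muscle cells, to switch back on genes of the fetal heart such as natriuretic peptides, to lay down collagen through activated fibroblasts, and to burn less fatty acid. Cardiomyocytes hold most of the RNA for contraction and for mitochondria, whereas fibroblasts, endothelial cells and macrophages divide and make matrix. In whole-heart RNA, fewer cells of a type and less RNA per cell cannot be told apart.

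Piezo1 itself stood at 2.35 and 3.09 FPKM in WT sham, 3.83 and 3.23 in Cko-labelled sham, 5.38 and 5.83 in WT TAC and 5.24 and 3.89 in Cko-labelled TAC. The 2 libraries labelled Cko sham were thus not below WT sham. A value over the whole gene does not show reads over single exons, and Piezo1 is also made by cells other than the muscle cells, so the level does not check the deletion, and the knockout libraries are named by their labels throughout. Over both genotypes Piezo1 was called higher under TAC (log2 fold change 0.63 ± 0.16 standard error, adjusted p = 0.0284), with all 4 TAC libraries above all 4 sham libraries. That call was kept in 2 of the 8 analyses that left out 1 library, without Cko sham 1 or without Cko TAC 2, and the adjusted p rose to at most 0.0786 in the others.

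The reads recovered from the deposited values summed to between 15574769 and 17313084 per library. Mitochondrially encoded genes took 18.2% to 24.4% of them in sham and 17.6% to 20.7% under TAC, a mean difference of -2.97 percentage points (exact permutation test over 70 assignments, two-sided p = 0.114, n = 4 and 4). The library size behind the deposited FPKM was 0.886 to 0.945 times the read total in sham and 1.02 to 1.10 times under TAC (exact permutation test, two-sided p = 0.0286, the smallest that 4 against 4 can give). The scaling therefore differs between the groups compared. WT sham 1 stood apart by some genes of atrial muscle: the atrial myosin light chain Myl7 was at 394 FPKM there and at most 0.443 elsewhere, and the calcium pump regulator Sln was at 43.6 FPKM there and listed at 0 elsewhere. Not every atrial marker did so. Nppa was close to the other sham libraries there, and Bmp10 was listed at 0 in every library. WT sham 1 and WT TAC 1 stood apart from the other 6 libraries by the matrix genes Fmod (32.0 and 46.5 FPKM, at most 1.12 elsewhere) and Comp (26.1 and 75.4 FPKM, at most 2.93 elsewhere), and WT TAC 1 by the immunoglobulin chain Igkc at 272 FPKM. Those marker genes of single libraries were picked after their values were seen. The first principal component held 44.2% of the variance and separated TAC from sham, with coordinates of 13.3 to 43.1 in TAC and -37.1 to -24.0 in sham. The second component held 16.6%, with WT sham 1 at 30.2 and WT TAC 1 at 31.9 and the other 6 libraries below 0.

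Across all tested genes, 3481 were called at an adjusted p under 0.05 (23.5%): 1614 were higher under TAC (10.9%) and 1867 lower (12.6%). Most changes were modest. The median log2 fold change was 0.63 among genes called higher and -0.61 among genes called lower, 364 rose and 247 fell at least 2-fold, and 50 rose and 12 fell at least 4-fold. All 4 TAC libraries lay above all 4 sham libraries for 1836 genes (12.4%) and below them for 2057 (13.9%), and 2989 of the 3481 called genes had no overlap between the groups. With each library scaled to its read total in place of the deposited scaling, the median log2 fold change of all genes moved from 0.0039 to 0.19, and 3710 genes were called higher and 958 lower, so that 79.5% of calls were higher instead of 46.4%. With mitochondrially encoded genes left out of the scaling the split was 3074 higher and 1141 lower (72.9% higher), and with limma-voom on recovered reads 3998 and 978 (80.3% higher). The limma-voom fit also scaled each library to its reads summed over the tested genes. Its split is therefore no check of scaling apart from that of the read total. Under each of these 3 scalings every gene called with the deposited scaling and tested again kept its sign (3478, 3471 and 3481 genes). Median-of-ratios and trimmed-mean scaling, which set library size by typical genes instead of the read total, stayed close to the deposited split. The former called 1616 higher and 1863 lower, and the latter 1618 and 1861. The number called fell to 1725 without both WT sham 1 and WT TAC 1, and in the analyses that left out 1 library it ran from 1772 without Cko TAC 1 to 4095 without Cko TAC 2. By gene length, 22.7% of the 3106 shortest protein-coding genes were called lower, against 6.15% of the 3106 longest. The median length was 2942 bases for protein-coding genes called lower, 4645 for those called higher and 4484 for those not called, and the part of length in the calls was not tested. The number of calls was under 3481 by more than 1.5 times in 5 of them, at 2269 without WT sham 1, 2220 without WT TAC 1, 2081 without Cko sham 1, 2142 without Cko sham 2 and 1772 without Cko TAC 1.

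**Figure D1:**
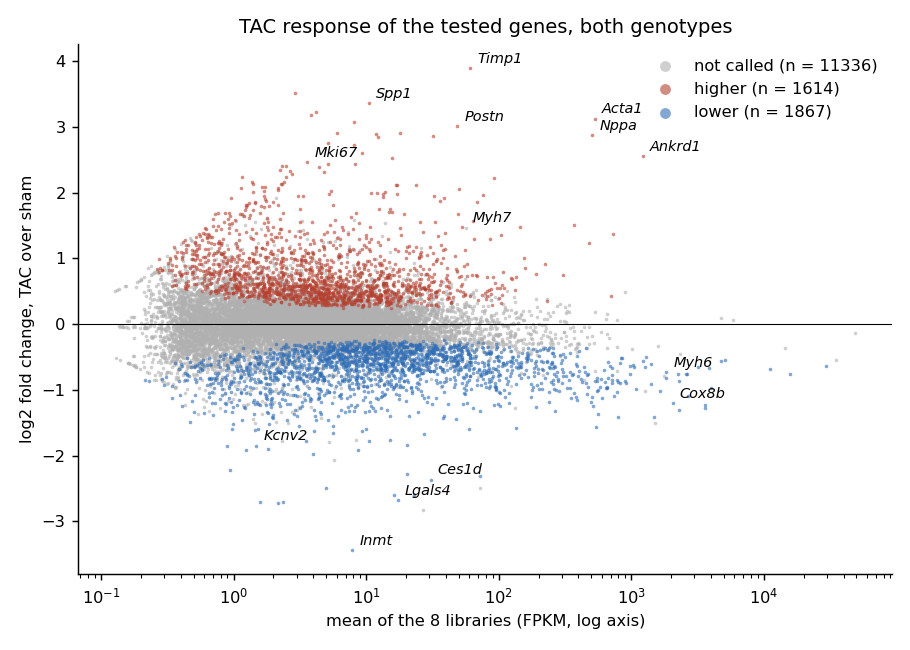
Log2 fold change of TAC over sham (vertical axis) against the mean of the 8 libraries in FPKM (horizontal log axis) for each of 14817 tested genes. Red points are the 1614 genes called higher, blue the 1867 called lower and grey the rest; Timp1 at the top and Inmt at the bottom mark the ends of the range among named genes.

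The fetal gene programme and other markers of hypertrophy rose as a group: of 27 tested members of 30 listed, 16 were called higher and 2 lower, with a median log2 fold change of 0.83. Nppa, which encodes the atrial natriuretic peptide that the stretched ventricle also makes, was at 112 and 116 FPKM in WT sham, 97.9 and 102 in Cko-labelled sham, 1855 and 532 in WT TAC and 742 and 515 in Cko-labelled TAC. The 4 sham libraries were close together, every TAC library was above them, and WT TAC 1 was the highest. Its log2 fold change was 2.87 ± 0.35, adjusted p = 0.00330. Acta1, the skeletal form of actin and a member of the fetal programme list, was at 75.5 and 189 FPKM in WT sham, 48.7 and 177 in Cko-labelled sham, 745 and 1018 in WT TAC and 841 and 1154 in Cko-labelled TAC. Here the sham libraries spread widely and the TAC libraries still lay far above them (3.13 ± 0.43, adjusted p = 0.00457). Ankrd1, a stretch-responsive protein of the sarcomere and nucleus, stood at 312 and 451 FPKM in WT sham, 209 and 450.5 in Cko-labelled sham, 3269 and 1902 in WT TAC and 1815 and 1404 in Cko-labelled TAC (2.55 ± 0.28, adjusted p = 0.00278). Nppb, the gene of brain natriuretic peptide, overlapped between the groups, at 219 and 428 FPKM in WT sham, 629.6 and 348 in Cko-labelled sham, 1628 and 951 in WT TAC and 1023 and 586 in Cko-labelled TAC. Its call (1.37 ± 0.39, adjusted p = 0.0378) and that of Rcan1, an inhibitor and target of calcineurin (1.13 ± 0.32, adjusted p = 0.0398), were kept in 2 of the 8 analyses that left out 1 library, without Cko sham 1 or without Cko TAC 2, with adjusted p up to 0.099 and 0.105 in the others. Without Cko TAC 1, 10 members of the list were called higher instead of 16.

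The myosin heavy chains moved unequally. Myh6, the fast adult ventricular form in mice, was at 2618 and 2264 FPKM in WT sham, 2012 and 2262 in Cko-labelled sham, 1145 and 1563 in WT TAC and 1240.3 and 1607 in Cko-labelled TAC, with every TAC library below every sham library (-0.73 ± 0.16, adjusted p = 0.0154). That call was lost without WT sham 1 or without Cko TAC 1 (adjusted p up to 0.0548). Myh7, the slow fetal form, was at 24.6 and 24.9 FPKM in WT sham, 15.6 and 13.7 in Cko-labelled sham, 266 and 56.7 in WT TAC and 32.5 and 16.6 in Cko-labelled TAC. WT TAC 1 was far above all other libraries and Cko-labelled TAC overlapped sham, so that its log2 fold change of 1.47 ± 0.52, adjusted p = 0.0756 was not called. Myh7 passed in 2 of the 8 analyses that left out 1 library, with a log2 fold change of 0.86 without WT TAC 1 (adjusted p = 0.0476) and 1.82 without Cko TAC 2 (adjusted p = 0.0410), and with each library scaled to its read total (adjusted p = 0.0494). Myh7b, a slow-tonic myosin of muscle and heart, fell (-1.63 ± 0.18, adjusted p = 0.00283), from 14.2 ± 2.04 FPKM in sham to 4.33 ± 1.21 under TAC (mean ± SD, n = 4 each).

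At the myosin locus on chromosome 14 (GRCm38, the build also called mm10), 2 short or antisense features were called lower, whereas Myh7 was not called. Mir208a, a microRNA gene at the same locus, was not called either (log2 fold change -1.49, adjusted p = 0.125). Mir208b, a microRNA gene inside Myh7 on the same strand (chr14:54975700-54975776), was listed at 131 and 134 FPKM in WT sham, 124 and 78.0 in Cko-labelled sham, 8.38 and 19.9 in WT TAC and 23.9 and 63.9 in Cko-labelled TAC, which rests on 143, 146, 146 and 92 reads in sham and 12, 27, 34 and 85 under TAC. Its log2 fold change was -2.31 ± 0.50, adjusted p = 0.0155, lost without Cko TAC 1 (adjusted p = 0.0525). Mhrt, a noncoding RNA of the opposite strand (chr14:54968678-54974349) that overlaps the 3' part of Myh7, fell from 21.8 ± 3.55 to 8.59 ± 4.38 FPKM (log2 fold change -1.39 ± 0.29, adjusted p = 0.0133). Mhrt was picked after its values were seen, and because no source used here says whether reads were counted by strand, those of Mhrt and Myh7 over their overlap cannot be told apart. Reads over a hairpin gene in a long-RNA library are not a measure of the mature microRNA.

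**Figure D2:**
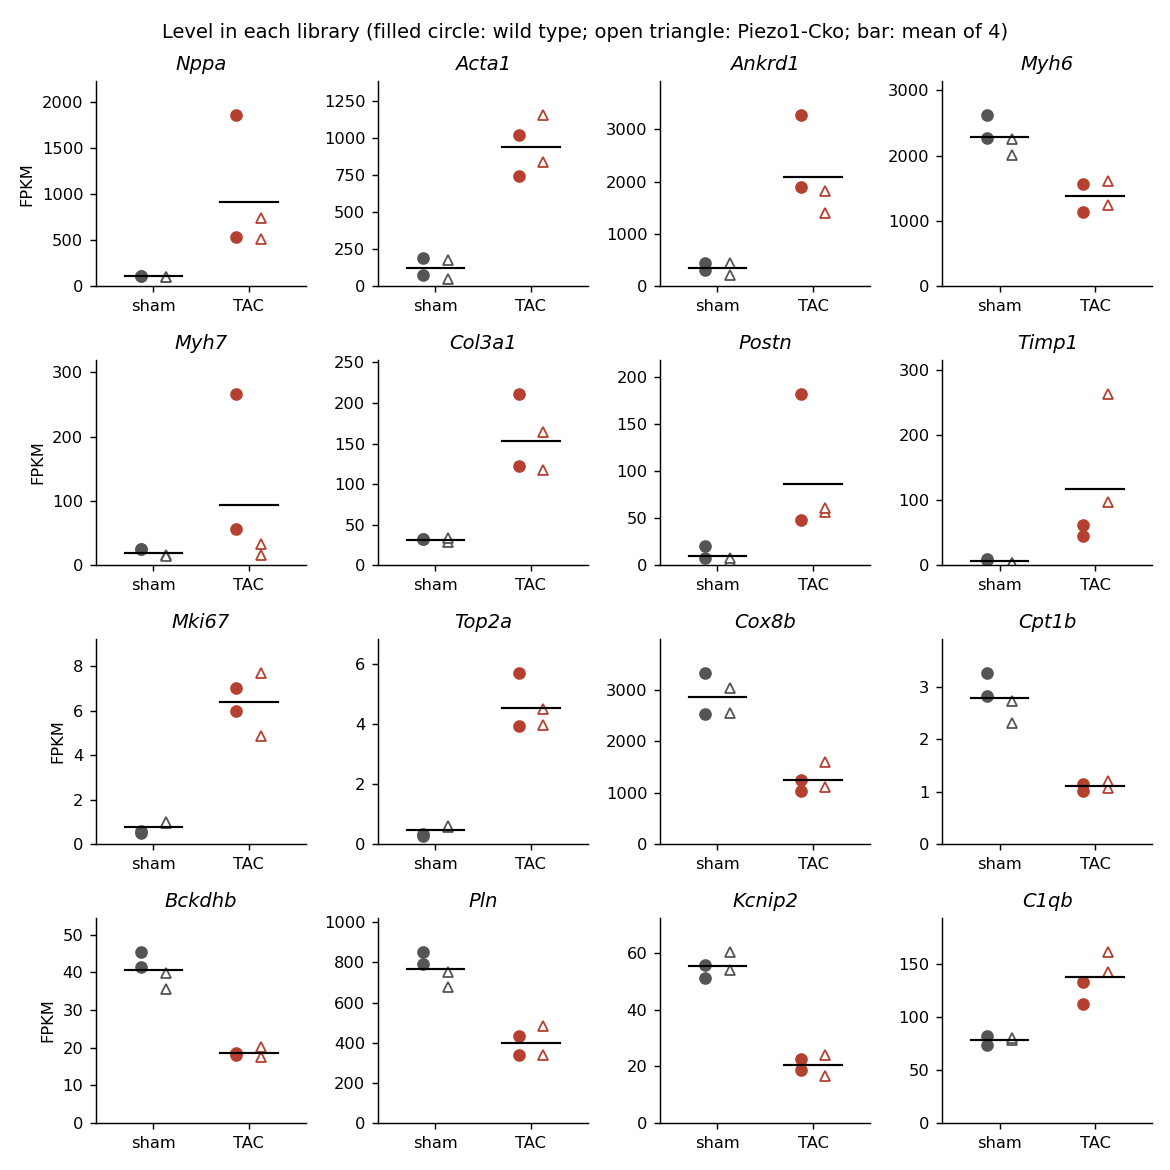
FPKM (linear axes from 0, 1 panel per gene) of 16 named genes in each library after sham (grey) and TAC (red); filled circles are wild type, open triangles the libraries labelled Piezo1-Cko, and bars the mean of 4 libraries. Apart from Myh7, the TAC libraries of every gene shown lie wholly above or wholly below the sham libraries.

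Cell division genes held the highest share of members called higher among the 35 lists. Of 30 tested genes of mitosis, 28 were called, each of them higher (Cenpa and Cenpf did not pass), with a median log2 fold change of 1.88, beside 10.9% of all genes called higher. The count was 28 in each of the 8 analyses that left out 1 library and without both WT sham 1 and WT TAC 1. The median was 2.02 with each library scaled to its read total and 3.11 with limma-voom, which adds a smaller constant to low values; for Mki67 and Top2a the log2 fold change was then 3.29 and 3.53. Mki67, the proliferation antigen Ki-67, was at 0.503 and 0.574 FPKM in WT sham, 0.960 and 0.980 in Cko-labelled sham, 7.01 and 6.00 in WT TAC and 4.88 and 7.70 in Cko-labelled TAC. No sham library reached 1 FPKM and no TAC library was under 4.8 FPKM (2.46 ± 0.17, adjusted p = 0.00139). Top2a, the topoisomerase that untangles chromosomes before division, was at 0.336 and 0.282 FPKM in WT sham, 0.579 and 0.616 in Cko-labelled sham, 5.71 and 3.95 in WT TAC and 3.97 and 4.50 in Cko-labelled TAC (2.41 ± 0.16, adjusted p = 0.00139). Cep55, which acts at the final cut between daughter cells, and Uhrf1, which maintains DNA methylation behind the replication fork, rose as clearly (1.85 ± 0.13, adjusted p = 0.00139, and 2.13 ± 0.15, adjusted p = 0.00139). With Fgl2, a secreted and membrane-bound protein of macrophages and endothelium (1.56 ± 0.11, adjusted p = 0.00139), these were the 5 genes of smallest p in the whole table. Aurkb, the kinase of the chromosomal passenger complex, went from 0.255 ± 0.137 FPKM in sham to 2.56 ± 0.792 under TAC.

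The DNA replication list moved the same way: of 29 tested members, 23 were called higher and 1 lower, with a median log2 fold change of 0.94. Mcm5 and Mcm3, subunits of the replicative helicase, rose (1.41 ± 0.13, adjusted p = 0.00160, and 0.99 ± 0.11, adjusted p = 0.00252). E2f1, the transcription factor of S-phase entry, rose from 0.834 ± 0.326 FPKM in sham to 3.85 ± 1.35 under TAC (1.68 ± 0.24, adjusted p = 0.00458). Foxm1, the transcription factor of mitotic genes, rose too (1.62 ± 0.16, adjusted p = 0.00191). The member that fell was Gmnn, which blocks helicase loading (-0.54 ± 0.14, adjusted p = 0.0277); it lost its call without WT sham 2, WT TAC 1, WT TAC 2, Cko sham 2 or Cko TAC 1 (adjusted p up to 0.0755) and with each library scaled to its read total. Absolute levels of these genes stayed low, with means under TAC of 2.56 FPKM for Aurkb and 6.40 FPKM for Mki67, against 137 FPKM for the macrophage gene C1qb. Macrophage markers rose over the same libraries (14 of 20), and their part in the rise of the division genes was not tested.

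Because the mitosis genes moved together, the sequence before their start sites was read for the elements that such promoters are known for. The windows below are the 250 bases before the RefSeq start site (GRCm38.p6), 5' to 3' on the gene's strand, for the mitosis members of smallest p with an entry in the RefSeq promoter table. Capitals mark, on either strand, CCAAT, the cell cycle homology region TTTGAA, the E2F-type element TTTNNCGC, the M-CAT element CATTCC, the TATA-type box TATAAA and the CArG box; the last of these can overlap CCAAT or a TATA-type match.
Top2a (chr11:99024190-99024439, minus strand): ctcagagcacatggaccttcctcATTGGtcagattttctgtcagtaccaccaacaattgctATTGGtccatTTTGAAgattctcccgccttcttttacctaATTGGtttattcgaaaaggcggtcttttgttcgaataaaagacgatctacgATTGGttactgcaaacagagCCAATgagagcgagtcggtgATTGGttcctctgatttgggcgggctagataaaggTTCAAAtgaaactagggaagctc
Mki67 (chr7:135716380-135716629, minus strand): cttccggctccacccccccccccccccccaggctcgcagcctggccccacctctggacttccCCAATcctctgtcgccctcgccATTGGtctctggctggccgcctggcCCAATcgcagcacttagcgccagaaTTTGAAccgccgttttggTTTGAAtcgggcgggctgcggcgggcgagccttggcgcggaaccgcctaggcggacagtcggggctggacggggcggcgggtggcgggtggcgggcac
Nusap1 (chr2:119618048-119618297, plus strand): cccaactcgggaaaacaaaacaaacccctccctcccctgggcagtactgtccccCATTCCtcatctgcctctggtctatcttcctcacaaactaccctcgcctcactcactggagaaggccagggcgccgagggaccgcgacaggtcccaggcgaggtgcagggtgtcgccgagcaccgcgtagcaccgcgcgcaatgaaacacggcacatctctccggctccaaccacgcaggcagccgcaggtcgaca
The Top2a window holds 6 copies of CCAAT and 2 of TTTGAA, and the Mki67 window holds 3 and 2. The Nusap1 window holds neither and a single CATTCC. Over the full table window of 300 bases (250 before and 50 after the start), 18 of 25 mitosis promoters matched held TTTGAA (72.0%), against 11.5% of the 9329 promoters matched to tested genes. CCAAT was in 20 of 25 (80.0%), against 38.6% of all. In the DNA replication list 10 of 22 held TTTNNCGC (45.5%), against 8.89% of all. Among the genes called higher as a whole the shares were nearer to those of all promoters, at 15.6% for TTTGAA and 40.3% for CCAAT (n = 1106). Within the 250 bases before the start alone, 7 of the 25 mitosis promoters held TTTGAA (28.0%, against 10.3% of all). A match is a description of the letters only.

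The same windows of the fetal programme members of smallest p are shown beside them.
Ankrd1 (chr19:36119845-36120094, minus strand): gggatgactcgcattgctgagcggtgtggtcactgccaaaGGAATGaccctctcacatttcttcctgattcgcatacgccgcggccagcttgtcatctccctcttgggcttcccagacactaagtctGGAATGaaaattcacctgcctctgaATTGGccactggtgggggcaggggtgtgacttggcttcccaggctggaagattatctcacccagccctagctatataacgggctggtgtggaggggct
Nppa (chr4:148000472-148000721, plus strand): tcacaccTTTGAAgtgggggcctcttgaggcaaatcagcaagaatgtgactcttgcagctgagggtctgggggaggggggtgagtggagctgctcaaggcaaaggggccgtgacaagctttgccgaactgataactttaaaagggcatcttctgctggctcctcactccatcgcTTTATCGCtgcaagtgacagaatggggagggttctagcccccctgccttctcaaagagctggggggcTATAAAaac
Acta1 (chr8:123894776-123895025, minus strand): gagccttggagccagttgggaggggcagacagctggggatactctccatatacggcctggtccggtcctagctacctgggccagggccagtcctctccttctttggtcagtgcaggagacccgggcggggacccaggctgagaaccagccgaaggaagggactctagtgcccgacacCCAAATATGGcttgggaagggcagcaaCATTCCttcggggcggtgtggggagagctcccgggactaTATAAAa
Ankrd1 has 2 copies of CATTCC and 1 CCAAT, and Acta1 has 1 CATTCC, 1 CArG box and 1 TATAAA. The Nppa window holds no CATTCC, and holds 1 TATAAA as well as 1 TTTGAA and 1 TTTNNCGC. Over 300 bases, 8 of 23 fetal programme promoters held CATTCC (34.8%), against 11.96% of all, and 6 of 23 held TATAAA (26.1%), against 7.10%. TTTGAA was in 2 of the 23 (8.70%).

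Calls in the 3 extracellular matrix lists were all higher, with the deposited scaling, with limma-voom and scaled to the read total. Of 21 tested collagen genes, 16 were called higher, with a median log2 fold change of 1.35. Col3a1, a fibrillar collagen of loose connective tissue, was at 32.6 and 32.0 FPKM in WT sham, 28.3 and 33.1 in Cko-labelled sham, 211 and 123 in WT TAC and 164 and 117 in Cko-labelled TAC (2.23 ± 0.18, adjusted p = 0.00153). Col1a1, the chain of the main scar collagen, was at 29.0 and 15.1 FPKM in WT sham, 12.02 and 16.8 in Cko-labelled sham, 148 and 52.2 in WT TAC and 77.5 and 48.5 in Cko-labelled TAC (2.06 ± 0.35, adjusted p = 0.00727). WT TAC 1 was the highest library for both. Col8a1, a short-chain collagen of vessels and injured tissue, rose most (2.91 ± 0.41, adjusted p = 0.00458), and Col5a1 and Col15a1 rose by 1.70 and 1.56 on the log2 scale.

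Of 35 tested matricellular, proteoglycan and microfibril genes, 23 were called higher (median log2 fold change 1.40). The count was 15 without WT sham 2, 12 without Cko sham 1 and 13 without Cko sham 2 or Cko TAC 1. Postn, periostin, the mark of activated fibroblasts, was at 20.3 and 7.82 FPKM in WT sham, 4.88 and 7.29 in Cko-labelled sham, 182 and 48.3 in WT TAC and 56.4 and 60.4 in Cko-labelled TAC. All 4 TAC libraries were above sham, and WT TAC 1 stood far above the next (3.01 ± 0.43, adjusted p = 0.00472). Tnc, tenascin-C, a matrix protein of remodelling tissue, was at 0.407 and 0.535 FPKM in WT sham, 0.118 and 0.126 in Cko-labelled sham, 3.66 and 5.74 in WT TAC and 14.2 and 5.89 in Cko-labelled TAC (3.18 ± 0.37, adjusted p = 0.00319). Its log2 fold change was 2.56 with a pseudocount of 1 FPKM and 4.84 with limma-voom. Fbn1, the microfibril protein fibrillin-1, and Sparc, a collagen-binding protein, rose from 6.45 ± 0.782 FPKM in sham to 28.0 ± 9.31 under TAC (1.98 ± 0.22, adjusted p = 0.00278) and from 193 ± 43.8 FPKM in sham to 545 ± 70.9 under TAC (1.52 ± 0.18, adjusted p = 0.00298). Fbln2 rose by 0.99 and Mfap5 by 1.95 on the log2 scale. Spp1, osteopontin, was at 1.96 and 0.513 FPKM in WT sham, 0.396 and 0.436 in Cko-labelled sham, 13.02 and 5.02 in WT TAC and 58.1 and 4.81 in Cko-labelled TAC. Cko TAC 1 was far above the other TAC libraries (3.36 ± 0.76, adjusted p = 0.0188), the log2 fold change was 2.48 without it, and the call was lost without Cko sham 1 or without Cko sham 2 (adjusted p up to 0.0547) and with limma-voom (0.152). Ctgf, connective tissue growth factor, overlapped between the groups (1.86 ± 0.51, adjusted p = 0.0352), and its call was lost without WT sham 1, WT TAC 1, Cko sham 1, Cko sham 2 or Cko TAC 1, with adjusted p up to 0.103.

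Among cross-linking enzymes, proteases and their inhibitors, 17 of 30 tested members were called higher, and 11 without Cko sham 1. Timp1, an inhibitor of matrix metalloproteinases, had the largest rise of the named genes (3.90 ± 0.56, adjusted p = 0.00473). It was at 8.16 and 9.37 FPKM in WT sham, 3.68 and 3.60 in Cko-labelled sham, 45.2 and 61.3 in WT TAC and 262 and 96.7 in Cko-labelled TAC, highest in Cko-labelled TAC and lowest in Cko-labelled sham. Loxl2, which cross-links collagen, was at 5.09 and 4.88 FPKM in WT sham, 3.34 and 5.08 in Cko-labelled sham, 15.8 and 19.8 in WT TAC and 20.7 and 22.5 in Cko-labelled TAC (1.99 ± 0.16, adjusted p = 0.00153). Serpina3n, a serine protease inhibitor of the acute phase, rose from 7.22 ± 2.00 FPKM in sham to 56.8 ± 17.7 under TAC (2.87 ± 0.24, adjusted p = 0.00153). Of 14 fibroblast markers, some of them also in the matrix lists, 5 were called higher and 2 lower, among the latter the actin-severing protein Gsn, which fell from 688 ± 98.1 FPKM in sham to 320.3 ± 52.0 under TAC (-1.11 ± 0.16, adjusted p = 0.00472). The count higher was 3 without WT sham 1, WT TAC 1, Cko sham 1 or Cko TAC 1, 2 without Cko sham 2, and 8 with limma-voom or scaled to the read total. Their summed level was 935 to 1361 FPKM in sham and 745 to 877 FPKM under TAC. Gsn alone, at means of 688 and 320.3 FPKM, is a large part of that sum. The lower sum is therefore no fall of the list as a whole. In it, 9 of 14 members had a positive log2 fold change (median 0.29).

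**Figure D3:**
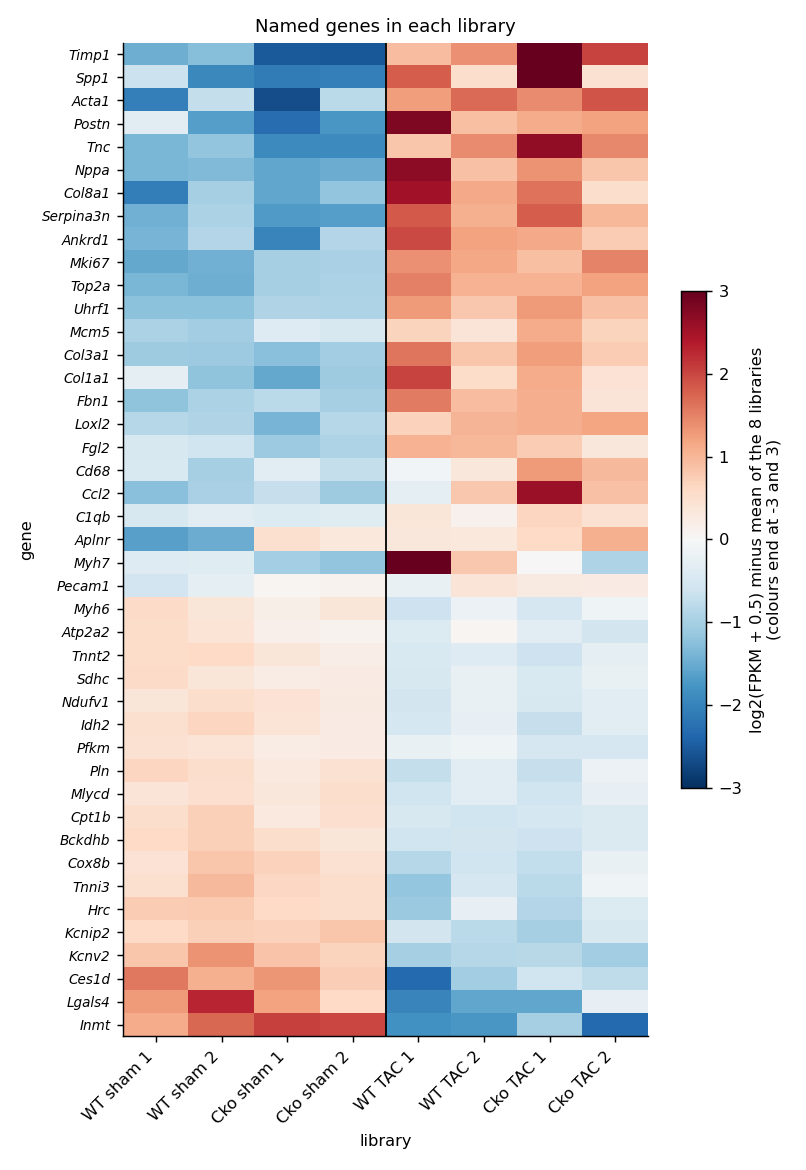
Log2(FPKM + 0.5) minus the mean of the 8 libraries for 43 named genes (vertical axis) in each library (horizontal axis, sham left of the line and TAC right); red is above and blue below the mean, and colours end at -3 and 3. Matrix, fetal programme and division genes are red in all 4 TAC libraries except Myh7, which is blue in Cko TAC 2, energy and contraction genes are red in sham, and Timp1 and Spp1 peak in Cko TAC 1 whereas Nppa, Postn and Myh7 peak in WT TAC 1.

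Lists of energy metabolism held calls mostly on the lower side. Of 40 tested nuclear genes of respiratory complexes I to V, 37 were called, each of them lower, with a median log2 fold change of -0.79, beside 12.6% of all genes called lower. With each library scaled to its read total, 33 were called lower and the median was -0.57, which is -0.76 relative to the median of all genes. Cox8b, a muscle subunit of cytochrome c oxidase, was at 2524 and 3323 FPKM in WT sham, 3032 and 2545 in Cko-labelled sham, 1034 and 1240.2 in WT TAC and 1113 and 1592 in Cko-labelled TAC. Every TAC library was under every sham library by a wide margin (-1.21 ± 0.17, adjusted p = 0.00459). Ndufv1, a core subunit of complex I, fell from 345 ± 24.8 FPKM in sham to 199.5 ± 21.3 under TAC (-0.79 ± 0.11, adjusted p = 0.00470), and Sdhc of complex II from 157 ± 18.0 FPKM in sham to 96.2 ± 9.30 under TAC (-0.70 ± 0.11, adjusted p = 0.00622).

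Fatty acid uptake and oxidation followed, with 25 of 35 tested members lower and 1 higher (median -0.66). Cpt1b, the muscle form of the carnitine transferase that admits fatty acids to mitochondria, was at 2.82 and 3.26 FPKM in WT sham, 2.30 and 2.73 in Cko-labelled sham, 1.15 and 1.01 in WT TAC and 1.08 and 1.202 in Cko-labelled TAC (-1.02 ± 0.11, adjusted p = 0.00278). The member that rose was Cpt1a, the liver form of the same enzyme (0.41 ± 0.12, adjusted p = 0.0421), a call kept in 1 of the 8 analyses that left out 1 library (without WT sham 2), with adjusted p up to 0.104. Slc27a1, a fatty acid transporter, and Mlycd, which breaks down malonyl-CoA, fell (-1.08 ± 0.12, adjusted p = 0.00283, and -0.88 ± 0.11, adjusted p = 0.00339).

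Branched-chain amino acid and ketone catabolism had 15 of 19 tested members lower (median -0.52). Bckdhb, a subunit of the dehydrogenase that commits branched-chain amino acids to breakdown, was at 41.3 and 45.5 FPKM in WT sham, 39.8 and 35.5 in Cko-labelled sham, 18.0 and 18.5 in WT TAC and 17.5 and 20.04 in Cko-labelled TAC, a fall seen in each TAC library (-1.11 ± 0.094, adjusted p = 0.00153). Bcat2, the transaminase before it, and Mccc2, a subunit of the leucine pathway's carboxylase, fell by 0.71 and 0.86 on the log2 scale. Of 24 tested genes of the citric acid cycle and pyruvate entry, 14 were lower (median -0.40), among them Idh2 and Idh3g, isocitrate dehydrogenases (-0.90 ± 0.13, adjusted p = 0.00458, and -0.78 ± 0.11, adjusted p = 0.00451). Pdk2, a kinase that switches off pyruvate dehydrogenase, fell as well (-0.84 ± 0.13, adjusted p = 0.00561). Scaled to the read total, the branched-chain and citric acid lists each had 8 members lower, and with limma-voom 8 and 9. The branched-chain count was 9 without both WT sham 1 and WT TAC 1, and the citric acid count was 9 without Cko sham 1 or Cko TAC 1.

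Glucose use was mixed. Of 24 tested genes of glucose uptake and glycolysis, 3 were higher (5 with limma-voom) and 9 lower. Slc2a4, the insulin-responsive transporter GLUT4, was at 129 and 126 FPKM in WT sham, 111 and 132 in Cko-labelled sham, 49.5 and 72.6 in WT TAC and 58.3 and 77.7 in Cko-labelled TAC (-0.96 ± 0.15, adjusted p = 0.00619). Pfkm, the muscle phosphofructokinase, and Ldhb, the heart form of lactate dehydrogenase, fell (-0.67 ± 0.085, adjusted p = 0.00339, and -1.04 ± 0.14, adjusted p = 0.00408), while Pgam1, the non-muscle phosphoglycerate mutase, rose (0.64 ± 0.13, adjusted p = 0.0121).

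Muscle structure and electrical genes fell in part. Of 22 tested sarcomere genes, 7 were lower and 1 higher, beside 12.6% lower and 10.9% higher of all genes. Tnni3 and Tnnt2, the cardiac troponins I and T, fell (-1.30 ± 0.23, adjusted p = 0.00794, and -0.87 ± 0.12, adjusted p = 0.00465); Tnni3 was at 2880.0 and 4007 FPKM in WT sham, 3158 and 2946 in Cko-labelled sham, 920.3 and 1433 in WT TAC and 1169.7 and 1869 in Cko-labelled TAC. The Z-disc protein Pdlim5 rose (0.73 ± 0.13, adjusted p = 0.00835). In calcium cycling 4 of 19 were called, each lower, beside the same 12.6% of all genes, and as few as 3 when 1 library was left out. The list's median was -0.13 as deposited, against 0.0039 for all genes, and 0.057 when scaled to the read total. There limma-voom called 4 higher and 3 lower. Pln, phospholamban, the brake on the calcium pump, was at 853 and 791 FPKM in WT sham, 676 and 751 in Cko-labelled sham, 336 and 434 in WT TAC and 339 and 484 in Cko-labelled TAC (-0.96 ± 0.15, adjusted p = 0.00633). Hrc, a calcium-binding protein of the sarcoplasmic reticulum, fell more (-1.33 ± 0.19, adjusted p = 0.00493). Atp2a2, the pump SERCA2 itself, was at 1467 and 1335 FPKM in WT sham, 1118 and 1077 in Cko-labelled sham, 748 and 1049 in WT TAC and 792 and 687 in Cko-labelled TAC (-0.62 ± 0.14, adjusted p = 0.0165); its call was lost without WT sham 1 or without Cko sham 1 (adjusted p up to 0.0528).

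Of 22 tested potassium and sodium channel genes, 8 were lower (5 without Cko TAC 1) and 1 higher. Kcnip2, the auxiliary subunit of the transient outward current, was at 51.2 and 55.8 FPKM in WT sham, 54.1 and 60.4 in Cko-labelled sham, 22.7 and 18.8 in WT TAC and 16.5 and 23.9 in Cko-labelled TAC, with no overlap between the groups (-1.43 ± 0.13, adjusted p = 0.00160). Kcnv2, a silent potassium channel subunit, and Kcnk3, a background channel, fell (-1.85 ± 0.16, adjusted p = 0.00153, and -0.90 ± 0.10, adjusted p = 0.00283). Beside these falls, markers of ventricular cardiomyocytes fell too: 9 of 16 were called, each lower. The list shares Tnni3 with the sarcomere list, so the 2 are not separate observations. The summed level of the markers was 32287 to 35569.8 FPKM in sham and 19728 to 24902 FPKM under TAC. The count of markers called lower was 4 without WT sham 1 or Cko TAC 1, and 5 without Cko sham 1, without Cko sham 2 or scaled to the read total. The part of the fall of these markers in the metabolic and contraction lists was not tested.

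**Figure D4:**
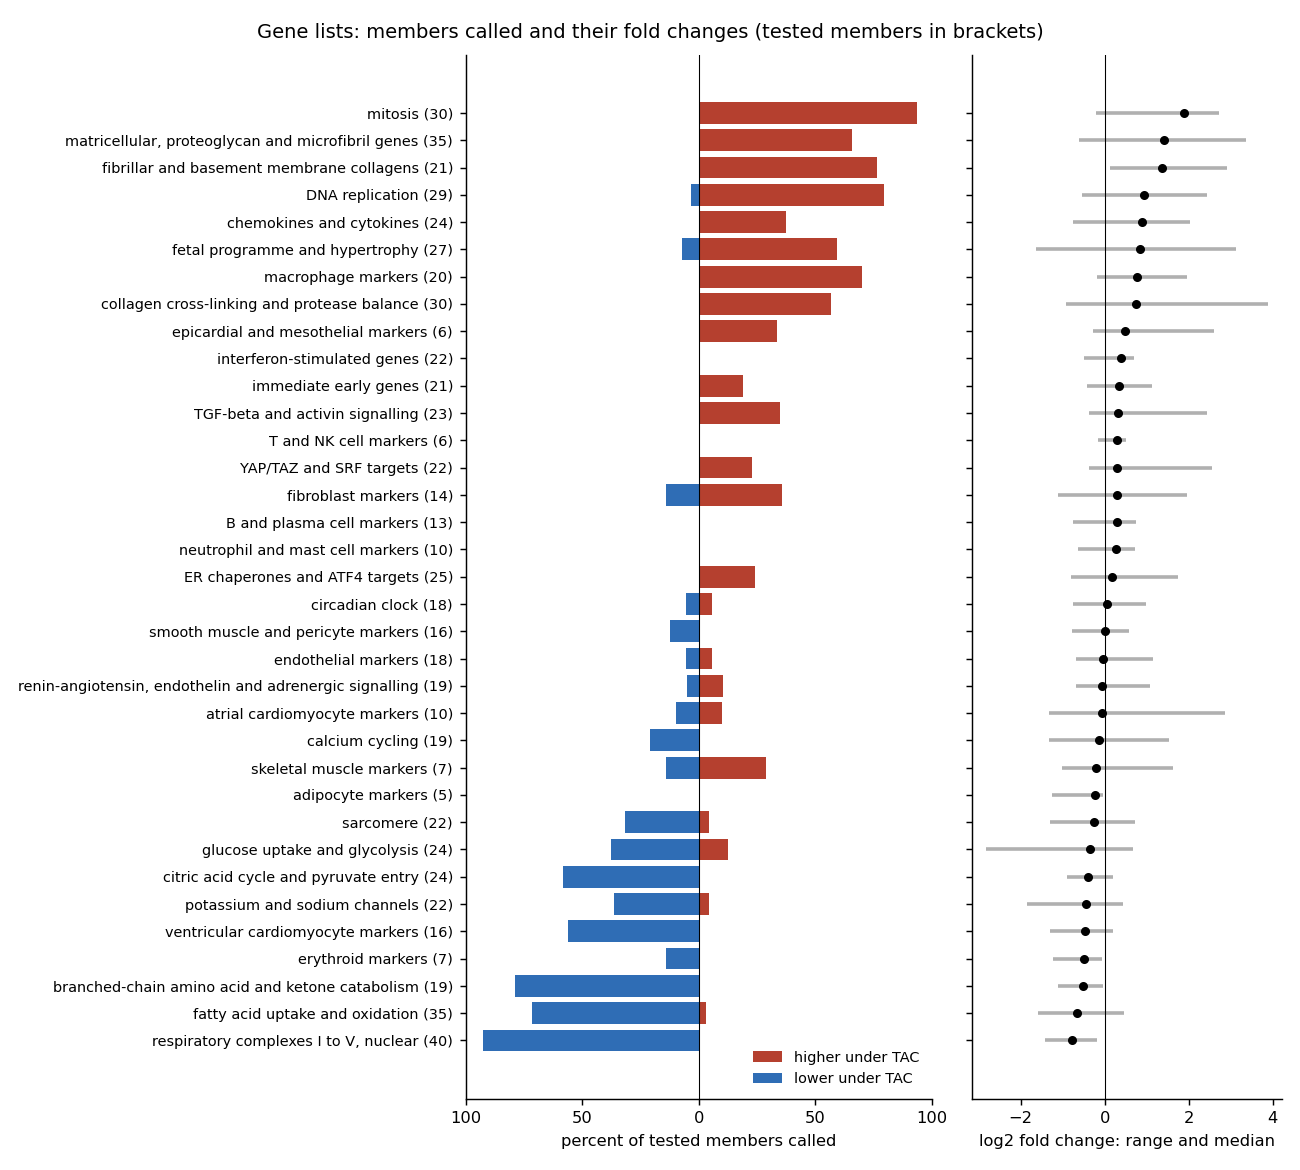
Left, the percent of tested members called higher (red, to the right) or lower (blue, to the left) under TAC for 35 gene lists, with the number of tested members in brackets; right, the range (grey line) and median (point) of the members' log2 fold changes. Mitosis, collagens and DNA replication reach furthest to the right and respiratory complexes furthest to the left.

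In the signalling lists most calls were higher, and the counts moved with single libraries and with the scaling. Of 23 tested genes of TGF-beta and activin signalling, 8 were called, each higher. That count was 3 without Cko sham 1, 4 without WT sham 1, WT sham 2, WT TAC 1, Cko sham 2 or Cko TAC 1, and 13 with limma-voom or scaled to the read total. Fstl1 and Fstl3, follistatin-like secreted proteins, rose (1.97 ± 0.19, adjusted p = 0.00191, and 1.62 ± 0.26, adjusted p = 0.00655), as did the receptor Tgfbr2 (0.70 ± 0.13, adjusted p = 0.00868). Among 22 targets of the mechanosensitive factors YAP/TAZ and SRF, 5 were higher. That count was 2 without WT sham 1, Cko sham 1 or Cko TAC 1, 3 without WT TAC 1 or WT TAC 2, 8 without WT sham 2, 10 scaled to the read total and 12 with limma-voom. Tpm4, a cytoskeletal tropomyosin, rose (0.70 ± 0.15, adjusted p = 0.0135). In the renin-angiotensin, endothelin and adrenergic list, 2 of 19 were higher and 1 lower, no more than the 10.9% and 12.6% of all genes, and 4 were higher and none lower with limma-voom or scaled to the read total. Ace, the angiotensin-converting enzyme, was at 10.7 and 14.1 FPKM in WT sham, 14.1 and 13.4 in Cko-labelled sham, 43.4 and 23.3 in WT TAC and 26.8 and 23.4 in Cko-labelled TAC (1.09 ± 0.20, adjusted p = 0.00966), and the receptor kinase Grk5 rose (0.74 ± 0.14, adjusted p = 0.01004). The member called lower was the angiotensin receptor Agtr1a (-0.58 ± 0.17, adjusted p = 0.0444), a call kept in 2 of the 8 analyses that left out 1 library and lost when scaled to the read total (adjusted p = 0.119). Of 21 immediate early genes 4 were higher, 2 without WT sham 1, Cko sham 1, Cko sham 2 or Cko TAC 1, and 8 with limma-voom or scaled to the read total. Myc rose (1.13 ± 0.22, adjusted p = 0.00996) and so did Egr3 (0.98 ± 0.21, adjusted p = 0.0141). Of 25 ER chaperones and ATF4 targets 6 were higher, 3 without WT sham 2 or Cko sham 2, 2 without Cko sham 1 and 1 without Cko TAC 1. The serine synthesis enzyme Psat1 rose (1.06 ± 0.17, adjusted p = 0.00645).

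Of 20 macrophage markers 14 were called, each higher (8 without WT sham 1, 9 without Cko sham 1 or Cko sham 2), with a median log2 fold change of 0.77. Their summed level was 469 to 537 FPKM in sham and 723 to 1129 FPKM under TAC. C1qb, a chain of complement C1q made by resident macrophages, was at 73.8 and 81.7 FPKM in WT sham, 78.0 and 80.1 in Cko-labelled sham, 133 and 112 in WT TAC and 161 and 143 in Cko-labelled TAC (0.79 ± 0.11, adjusted p = 0.00407). C1qc rose with it (0.61 ± 0.097, adjusted p = 0.00633), and Cd68, a lysosomal protein of macrophages, went from 6.85 ± 1.43 FPKM in sham to 17.9 ± 7.43 under TAC (1.25 ± 0.21, adjusted p = 0.00721). Of 24 tested chemokines and cytokines 9 were called, each higher. That count was 5 without WT sham 1, WT sham 2, WT TAC 2, Cko sham 1 or Cko TAC 1, 4 without Cko sham 2 and 14 scaled to the read total. Ccl2, which recruits monocytes, was at 2.60 and 3.22 FPKM in WT sham, 4.07 and 2.98 in Cko-labelled sham, 5.53 and 12.3 in WT TAC and 43.7 and 13.02 in Cko-labelled TAC, highest in Cko TAC 1 (1.99 ± 0.43, adjusted p = 0.0160). Cxcl10, an interferon-induced chemokine, rose from 0.528 ± 0.166 FPKM in sham to 3.82 ± 1.28 under TAC (2.04 ± 0.22, adjusted p = 0.00250), and Ccl3 rose by 0.88 on the log2 scale. Of 22 interferon-stimulated genes limma called none, with a median log2 fold change of 0.38; 2 were higher at an unadjusted p under 0.05, and limma-voom called 2.

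Markers of other cells of the heart were mostly not called. Of 18 endothelial markers 1 was higher (Aplnr) and 1 lower (Vwf, von Willebrand factor, lost when scaled to the read total, adjusted p = 0.0644, and in 4 of the 8 analyses that left out 1 library); the junction proteins Cdh5 (0.41 ± 0.19, adjusted p = 0.153) and Pecam1 (0.34 ± 0.15, adjusted p = 0.130) did not pass, and both were called with each library scaled to its read total. Summed levels of the endothelial list were 734 to 1336 FPKM in sham and 711 to 1440.4 FPKM under TAC. limma called no marker in the lists of B and plasma cells, T and NK cells, neutrophils and mast cells, or adipocytes (13, 6, 10 and 5 tested). At an unadjusted p under 0.05 these lists had 3, 1, 2 and 0 members, and limma-voom called 1, 1, 1 and 0. The B and plasma cell sum was 463 FPKM in WT TAC 1 and at most 77.3 FPKM in the other 7 libraries. Among smooth muscle and pericyte markers 2 of 16 were lower, a share near the 12.6% of all genes; limma-voom called 4 higher and none lower, and scaling to the read total 3 higher and none lower. In the epicardial list 2 of 6 tested members were higher, led by Aldh1a2, a retinoic acid synthesis enzyme (2.61 ± 0.28, adjusted p = 0.00250). In the erythroid list 1 of 7 was lower, in the skeletal muscle list 2 of 7 were higher and 1 lower, and in the circadian clock list 1 of 18 was higher and 1 lower; limma-voom called none of these lower. Of 10 tested atrial markers Nppa was higher and Stard10, a lipid transfer protein, lower (-1.33 ± 0.19, adjusted p = 0.00473).

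Other large rises fell outside these groups. Sprr1a, a cornified-envelope protein that the stressed heart also makes, was at 0.960 and 0.350 FPKM in WT sham, 0 and 0 in Cko-labelled sham, 13.3 and 3.44 in WT TAC and 12.4 and 2.87 in Cko-labelled TAC (3.22 ± 0.52, adjusted p = 0.00655). Its Cko-labelled sham libraries are listed at 0, so the fold depends on the pseudocount, and limma-voom did not call it (adjusted p = 0.0658). Nmrk2, a muscle kinase of nicotinamide riboside in NAD synthesis, rose (2.89 ± 0.42, adjusted p = 0.00503). The largest fall was that of Inmt, an indolethylamine methyltransferase, at 9.19 and 14.4 FPKM in WT sham, 18.2 and 17.4 in Cko-labelled sham, 0.773 and 0.850 in WT TAC and 1.76 and 0.398 in Cko-labelled TAC. Every TAC library was under 1.8 FPKM and every sham library above 9 FPKM (-3.44 ± 0.28, adjusted p = 0.00153). Lgals4, a galectin, and Ces1d, a carboxylesterase that hydrolyses lipids, fell (-2.68 ± 0.45, adjusted p = 0.00720, and -2.37 ± 0.36, adjusted p = 0.00561), as did Cytl1, a small secreted protein, Penk, the precursor of enkephalins, and Ttll1, a tubulin polyglutamylase, with log2 fold changes of -2.28, -1.97 and -1.84. Mir6929, Mir343 and Snord37 were also among the 12 largest falls, but rested on at most 7 reads in any library, so they are given as named only.

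Of 874 tested genes that the deposited table assigns to a transcription factor family, 71 were higher and 61 lower. That is 15.1% called, below the 23.5% of all tested genes. In the E2F family 6 of 10 were higher, in ETS 5 of 18 and in HMG 8 of 32. None of these 3 families had a member called lower with the deposited scaling, limma-voom or scaling to the read total. Some other families had more members lower than higher, beside 10.9% higher and 12.6% lower of all tested genes. With the deposited scaling, zf-C2H2 had 13 higher and 25 lower of 397. At 9.57% called it was below all tested genes in both directions. CSD had 2 higher and 4 lower of 7, and THAP and ESR-like each had 3 lower of 7 and none higher. These families were not examined under other scalings. Mxd3, a MYC-network repressor, rose (2.08 ± 0.21, adjusted p = 0.00204), as did E2f1 and Foxm1 above, Meox1, a homeobox factor of activated fibroblasts (1.40 ± 0.26, adjusted p = 0.00984), Hmgb2 (1.25 ± 0.12, adjusted p = 0.00191) and the macrophage factor Spi1 (1.02 ± 0.16, adjusted p = 0.00570). Those that fell included Hopx, a homeodomain cofactor of cardiomyocytes (-1.25 ± 0.22, adjusted p = 0.00814), Rxrg, a retinoid receptor (-0.92 ± 0.15, adjusted p = 0.00649), the RNA-binding protein Ybx2 (-1.34 ± 0.23, adjusted p = 0.00805) and Nr3c2, the mineralocorticoid receptor (-0.72 ± 0.14, adjusted p = 0.0102). The transcription factors were chosen after their values were seen.

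Each genotype was also tested on its own. In a model of all 8 libraries with 1 term per group, 1616 genes were called in WT and 117 in the libraries labelled Cko, an order that turned when only the 4 libraries of a genotype were fitted (3 in WT and 179 in Cko). In the model of all libraries, 98 of the pooled calls were called in both, and 2043 of the 3481 pooled calls (58.7%) were called in neither alone. A call in WT and not in Cko is no test of a difference. The test of the difference is the interaction. It gave 739 of 14817 genes an unadjusted p under 0.05, about as many as that threshold gives by chance. After adjustment it called 3 genes (0.0202%), and none of them was among the pooled calls. They were Gapdh, the glycolytic enzyme, and the predicted RNA genes Gm22574 and Gm22107. Gapdh was listed at 81.1 and 122 FPKM in WT sham and at 1.55 to 2.84 FPKM in the other 6 libraries. Its Cko minus WT difference in response was 5.40 ± 0.29 on the log2 scale (adjusted p = 0.0035), and its pooled response was not called (adjusted p = 0.0665). That difference rests on WT sham alone, and whether the listed values give the level of Gapdh in the heart was not tested. Among pooled calls the smallest interaction p belonged to genes led by Aplnr, the apelin receptor, at 10.4 and 11.5 FPKM in WT sham, 46.8 and 41.3 in Cko-labelled sham, 42.0 and 41.1 in WT TAC and 50.1 and 69.9 in Cko-labelled TAC. WT sham alone was low there, so that the response was 1.87 in WT and 0.42 in Cko, and the pooled call (1.15 ± 0.28, adjusted p = 0.0236) was lost without WT sham 1, WT sham 2, WT TAC 1 or WT TAC 2 (adjusted p up to 0.062). Papln, a matrix proteoglycan-like protein, had responses of 1.68 in WT and 0.57 in Cko, and Rps27, a ribosomal protein, of -1.98 and -0.55. Timp1 went the other way, with 2.52 in WT and 5.27 in Cko. None of these 4 passed the interaction test.

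**Figure D5:**
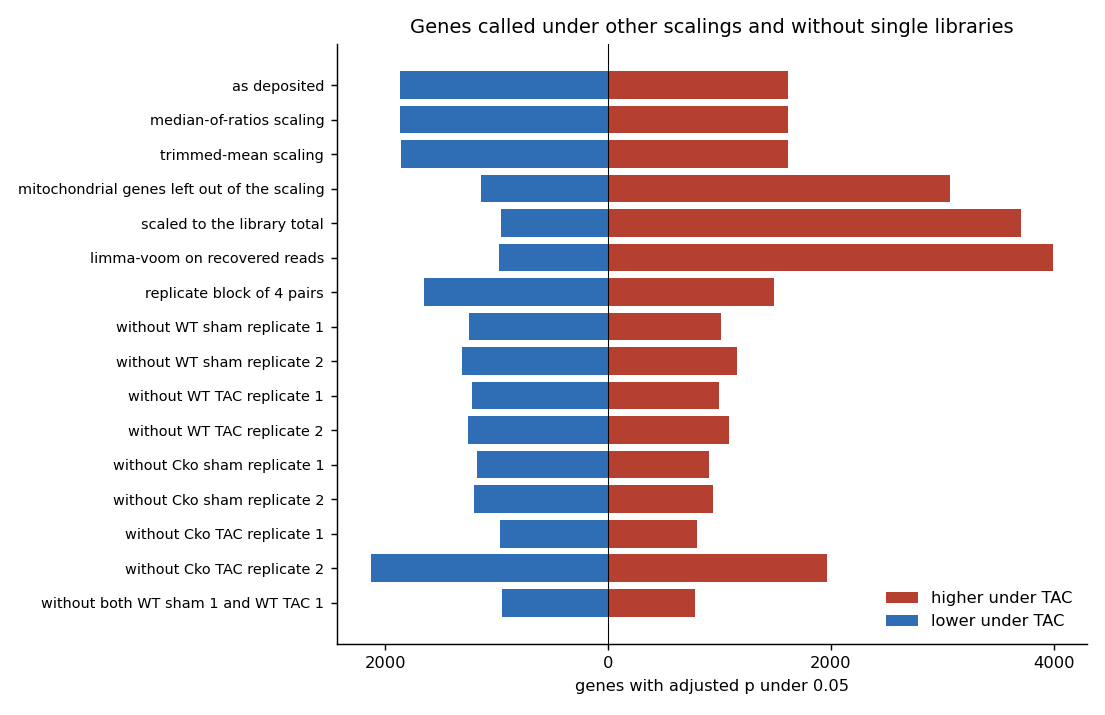
Number of genes called higher (red, right) and lower (blue, left) under TAC at an adjusted p under 0.05 with the deposited scaling, with 5 other scalings or models, with a replicate block, and without single libraries. Scaling to the library total, leaving mitochondrial genes out or limma-voom shifts calls to the higher side. Median-of-ratios and trimmed-mean scaling leave the split nearly unchanged, and leaving out 1 library gives 1772 to 4095 called.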

How the data were processed

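RNA was made into libraries with the NEBNext Ultra kit from 1 microgram of total RNA, per the labels' protocols. The builds mm10 and mm8 and the tools featureCounts 1.5.0-p3, CASAVA 1.8 and Bowtie 0.12.2 are named, without roles, in the submitters' processing notes; the strand setting and filters are not given in the sources used here. The authors deposited 1 table of FPKM for 8 libraries. Multiplied by gene length, 100% of these values were whole multiples of a step that is fixed within a library, to within 0.01 of a read; the steps gave the reads and the library size used. Of 54495 gene identifiers shared with GENCODE (GRCm38), 53585 had the same position.

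Values were taken as log2(FPKM + 0.5) for genes at 0.5 FPKM or more in at least 2 libraries. limma 3.58.1 in R 4.3.3 fitted genotype and surgery to the 8 libraries with 5 residual degrees of freedom, moderating variances robustly along an intensity trend. Adjusted p-values are Benjamini-Hochberg over 14817 genes, two-sided, threshold 0.05, and errors beside log2 fold changes are standard errors. A fold change on this scale understates the change of low genes. The interaction used 1 term per group. No count model was used for the main fit, since the deposited values are FPKM. limma-voom on the recovered reads was run as an alternative. It scaled each library to its reads summed over the tested genes. Results with limma-voom and with scaling to the read total are therefore not separate checks of the scaling. Libraries of a group differed beyond counting noise (chi-square per degree of freedom 17.3 to 44.2).

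Members and gene lists were chosen with earlier results of these data known. Named genes are 13 textbook genes, the 12 largest rises and falls (called, mean of 1 FPKM or more, no overlap, no predicted genes), the 3 members of smallest p per list and the smallest of the other direction if called, the 5 of smallest p and the 6 of smallest interaction p among called genes. Some genes that the rule takes are not reported here. Alternatives changed the pseudocount, filter, scaling, model, threshold and libraries. Promoters are RefSeq entries within 1000 bases of the deposited start, matched for 9329 of 14813 symbols. On simulated reads for 14817 genes of the surgery contrast, 66.4% of 2-fold and 88.2% of 4-fold changes were called over 10 draws, with 9.7 unchanged genes called per draw and 0 wrong signs. Changes were planted in 200 genes per draw, all of them above a floor of mean reads. These rates therefore do not cover genes of few reads, or data with as many changed genes as were called here.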

Additional observations from a re-analysis of the deposited data

Results flagged for a closer look

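Among 111 named genes, the 4 sham and the 4 TAC libraries were each checked for a library far from the other 3 on the log2(FPKM + 0.5) scale, with its gap to the nearest library given as a share of the range. Of 222 such groups 12 had one, and chance gives about 1 in 20. In sham, the library apart was Cko sham 2 for Mir208b (gap over range 0.857, at 78.0 FPKM) and Rps27 (0.883, at 219.5 FPKM), Cko sham 1 for Loxl2 (0.897, at 3.34 FPKM), WT sham 1 for Spp1 (0.879, at 1.96 FPKM), and WT sham 2 for Pgam1 (0.888, at 21.6 FPKM) and Egr3 (0.848, at 1.02 FPKM). Under TAC it was WT TAC 1 for Postn (0.832, at 182 FPKM), Meox1 (0.831, at 67.6 FPKM), Stard10 (0.887, at 4.05 FPKM) and Mir6929 (1.00, at 0.802 FPKM), and Cko TAC 2 for Slc27a1 (0.917, at 11.99 FPKM) and Mir343 (1.00, at 1.54 FPKM). For Mir6929 and Mir343 the other 3 TAC libraries are listed at 0.

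The response to TAC differed between genotypes by the interaction test for 3 genes, given as the Cko minus the WT log2 response. It was 5.40 for Gapdh (adjusted p = 0.0035), 5.01 for Gm22574 (adjusted p = 0.0258) and 3.56 for Gm22107 (adjusted p = 0.0435). For Gapdh, WT sham alone stood apart, at 81.1 and 122 FPKM, and the cause of the low listed values elsewhere was not tested. Gm22574 was listed at 0 in both WT TAC libraries and at 3.27 to 10.6 FPKM in the other 6. Gm22107 was listed at 0 in WT TAC and in Cko-labelled sham, at 0.703 and 0.705 FPKM in WT sham and at 2.17 and 1.74 FPKM in Cko-labelled TAC.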

How the results depend on the processing

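Against 3481 genes called (1614 higher, 1867 lower), no filter on low values called 2183 (985 and 1198), a log2 fold change of 1 or more left 611 (364 and 247) and an adjusted p under 0.01 left 1054 (467 and 587). Calls higher and lower were 3710 and 958 scaled to the library total, 3074 and 1141 with mitochondrial genes left out of the scaling, and 3998 and 978 with limma-voom. They were 1616 and 1863 with median-of-ratios scaling and 1618 and 1861 with trimmed-mean scaling, close to the deposited scaling. WT libraries alone called 3 (1 and 2) and Cko libraries alone 179 (121 and 58), each with 2 residual degrees of freedom. Without both WT sham 1 and WT TAC 1, 1725 were called (777 and 948). Leaving out each library in turn gave 1772 to 4095 called, 802 to 1967 higher and 970 to 2128 lower. In every one of these analyses that refitted the data, all genes called above that were tested again kept their sign. The cutoffs on fold change and adjusted p reuse the same fit, and the refits share libraries with it. The kept signs are therefore no independent check. A replicate block of 4 pairs called 3142 (1488 and 1654); same-numbered libraries deviated together in WT (r = 0.194) but not in Cko (r = -0.022), and the other 4 pairs of groups gave r of 0.014 to 0.093, so the numbers were not taken to pair libraries across all groups. For the interaction, 3 genes were called, 1 with the replicate block and 0 to 2 without single libraries. Library-total scaling and the analysis without both libraries were added after seeing the data. Reads limit the precision of low genes.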

Other observations

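By the biotype the deposited table gives each gene, long noncoding classes held more members lower than higher under TAC. All tested genes leaned the same way with the deposited scaling, at 10.9% higher and 12.6% lower. Called in either direction were 22.1% of lincRNA, 15.9% of antisense and 17.4% of processed transcript genes. The share was 15.7% for processed pseudogenes and 7.69% for miRNA genes, against 23.5% of all tested genes. Of 349 tested lincRNA genes 13 were called higher and 64 lower with the deposited scaling, and 22 and 36 with limma-voom. Of 334 antisense genes 6 were higher and 47 lower, and 9 and 29 with limma-voom. Processed pseudogenes changed sides with the scaling: of 772, 32 were higher and 89 lower as deposited, and 51 and 34 with limma-voom. Among 143 miRNA genes 1 was higher and 10 lower, and among 149 processed transcripts 4 were higher and 22 lower, which limma-voom made 10 and 10. Reads of a pseudogene may come from its parent gene, and reads of an antisense gene from its partner, so these counts are uncertain.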
